A study of Mus musculus with 109 samples.

Results

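This report describes the dividing cells in a preparation of granule cell progenitors (GCPs) from the postnatal mouse cerebellum, set against the cells of the same preparation with little or no mRNA of the proliferation gene Mki67. Cells were chosen by their Mki67 level alone. Of the cells in the series, 30 had at least 100 counts per 1000000 (CPM) of Mki67 and were taken as Mki67-high, and 75 had under 10 CPM and were taken as Mki67-low, 105 cells in all. The remaining 4 cells of the series were left out, 1 between the limits and 3 with a total under 1000000 counts or more than 10000 detected genes. Per the labels, all cells came from cerebella of C57BL/6 mice at postnatal day 7. The authors enriched them on a Percoll density gradient, captured them on a C1 Fluidigm chip and made 1 Smart-seq library from each. The labels give no genotype, no treatment and no animal, so that the number of mice behind the cells is unknown. The libraries fall into 6 library groups, given by the number that ends each title, and the group is the replicate here. P-values therefore measure the spread between the values of these library groups. That spread may be technical, and it includes the spread between the few cells that make up each value.

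GCPs divide in the outer external granule layer under the mitogen Sonic hedgehog, and their daughters leave the cycle, grow axons and migrate inward as granule cells (GCs). Mki67 mRNA, which encodes a protein coating mitotic chromosomes, accumulates in S, G2 and M phase and falls after exit from the cycle. Genes of DNA replication peak in S phase, whereas genes of the spindle, the kinetochore and the condensins are transcribed in G2 and M phase.

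Mki67 itself is the selection and is described without a test. The 3 highest values in the Mki67-low class were 4.84, 5.83 and 9.27 CPM, the cell between the limits had 21.3 CPM, and the 3 lowest values in the Mki67-high class were 132, 175 and 176 CPM. Every library group held both classes, with 4, 4, 7, 3, 8 and 4 Mki67-high cells and 15, 12, 10, 15, 10 and 13 Mki67-low cells in groups 1 to 6. The gap between the classes is visible in the plot of Mki67 by cell. Within a library group the deposited counts of all cells of a class were added up, which gave 6 sums per class of 9376998 to 66286508 counts. Values of a gene are given as CPM of these sums. Because a Mki67-low sum pools 10 to 15 cells and a Mki67-high sum 3 to 8, a gene used by a small share of cells is more easily missed in the Mki67-high sums.

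**Figure D1:**
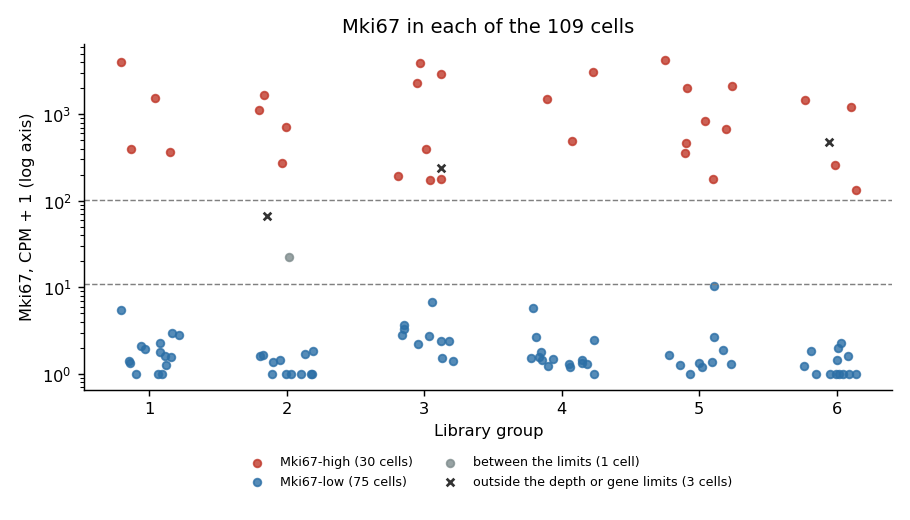
Mki67 in every cell of the series, as CPM + 1 on a log axis, by library group. Dashed lines mark the limits of 10 and 100 CPM, and the 30 Mki67-high cells lie above the upper line while the 75 Mki67-low cells lie below the lower line in all 6 library groups.

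The total counts of the classes overlapped widely, from 1562597 to 6787358 per cell in the Mki67-high class and from 1110182 to 8616017 in the Mki67-low class. With every cell thinned to 1000000 counts, a median of 3711.5 genes was detected in Mki67-high cells and 3137 in Mki67-low cells. The class median was higher in Mki67-high cells in 6 of 6 library groups, by 565 ± 341 genes (mean ± SD over 6 groups), with p = 0.031 in an exact two-sided sign-flip permutation test. This is the smallest p that 6 groups allow, and after adjustment over the 5 measures compared it was 0.0781. The median mitochondrial share was 2.29% of counts in Mki67-high cells and 1.86% in Mki67-low cells, higher in 5 of 6 groups (exact p = 0.0625, adjusted p = 0.0781).

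Both classes carried transcription factors of the granule lineage, although not every factor was found in most cells. Neurod1, a bHLH factor of the lineage, reached 10 CPM in 29 of 30 Mki67-high and 72 of 75 Mki67-low cells. Meis1 did so in 28 and 58, Pax6 in 26 and 55, and Zic1 in 25 and 68. Zic2 reached 10 CPM in only 15 and 28 cells, and Barhl1 in 10 and 20. Neurod1 averaged 1468 ± 1017 CPM in the Mki67-high sums and 2210 ± 1027 CPM in the Mki67-low sums (mean ± SD, n = 6), and was lower in the Mki67-high sum in 6 of 6 groups (edgeR adjusted p = 0.921). Meis1 averaged 1007 ± 596 and 1030 ± 635 CPM. Of 30 lineage transcription factors tested, 0 were called by edgeR, 0 had an unadjusted p under 0.05 and 0 were called by limma or DESeq2, with a median log2 fold change of -0.09 against 0.04 over all 8177 genes tested. Of the 30, 5 were lower in the Mki67-high sum in all 6 groups and 0 were higher in all 6, beside 399 and 142 of all 8177 genes. Atoh1, the factor that specifies the lineage, was present in few cells: 5 Mki67-high and 4 Mki67-low cells reached 10 CPM. Its 6 Mki67-high sums were 15.9, 362, 0, 0, 69.2 and 13.7 CPM, and its Mki67-low sums 0.0696, 3.08, 0, 2.73, 0 and 28.8 CPM. These ranges overlap, and the difference did not pass the test (edgeR adjusted p = 0.820).

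The genes called higher in Mki67-high cells encode proteins of mitosis and centrosome duplication. The edgeR quasi-likelihood test with Benjamini-Hochberg adjustment called 5 of 8177 genes higher in Mki67-high cells, 0.0611% of those tested, namely Tacc3, Bub1, Stil, Cdca3 and Aurkb. It called 0 genes lower. At an unadjusted p under 0.05 there were 248 higher and 343 lower genes (3.03% and 4.19%), limma on means of log2(CPM + 1) called 126 higher and 9 lower (1.54% and 0.11%), and DESeq2 called 173 higher and 220 lower. The biological coefficient of variation between sums of a class was 174%. Simulated sums were drawn independently, with the dispersions that edgeR fitted and no effect of library group. The simulated result with a replicate block therefore does not cover sums that share a group. With 7822 genes tested, edgeR recovered 3 of 92 genes changed by a log2 fold of 4 and 0 of 90 changed by 2. At a log2 fold of 4, edgeR with a replicate block recovered 11 of 92, limma 10 of 100 and DESeq2 33 of 92. Limma was run there on sums, not on means over cells. Of the DESeq2 calls 66.9% were false, beside 9.09% for limma and 7.69% with the block. These shares hold for the simulation and need not carry over to calls in the data.

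Tacc3, a microtubule-binding protein of the spindle (chr5:33658128-33678995, mm10), had 215, 704, 100.4, 420, 390 and 289 CPM in the Mki67-high sums of groups 1 to 6 and between 0.114 and 0.577 CPM in the Mki67-low sums. All Mki67-high sums thus lay far above all Mki67-low sums. The log2 fold change was 10.03 ± 1.17 (SE) with an adjusted p of 0.00119 in edgeR. At the level of cells, 18 of 30 Mki67-high and 0 of 75 Mki67-low cells reached 10 CPM. If cells are counted as independent, 0 of 75 is compatible with shares up to 4%. Tmem129 overlaps Tacc3 on the opposite strand, and the strand setting of the counting is not given in the sources used here.

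Bub1 encodes a kinase of the spindle assembly checkpoint (chr2:127801122-127831865). Its Mki67-high sums were 158, 16.6, 103, 394, 37.2 and 522 CPM, and its Mki67-low sums did not exceed 0.139 CPM. It was carried at 10 CPM or more by 14 Mki67-high cells and 0 Mki67-low cells (log2 fold change 11.37 ± 1.77, edgeR adjusted p = 0.0275). Aurkb, the kinase of the chromosomal passenger complex (chr11:69045647-69051664), had Mki67-high sums of 114, 566, 2.69, 268, 170 and 138 CPM. The sum of group 3 was far below the others, yet above the highest Mki67-low sum of 0.531 CPM, and 11 Mki67-high cells and 0 Mki67-low cells reached 10 CPM (10.30 ± 1.76, edgeR adjusted p = 0.0342).

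Cdca3, which promotes degradation of mitotic entry inhibitors (chr6:124829547-124833701), had Mki67-high sums of 438, 196, 95.3, 290, 380 and 104 CPM and Mki67-low sums of 0.102 to 2.82 CPM. It was found at 10 CPM or more in 17 Mki67-high cells and 1 Mki67-low cell (8.65 ± 1.47, edgeR adjusted p = 0.0342). Stil, a protein of centriole duplication (chr4:115000159-115043196), had Mki67-high sums of 448, 157, 5.49, 275, 143 and 509 CPM and Mki67-low sums of 0.0280 to 0.839 CPM. As for Aurkb, the sum of group 3 was the lowest of the Mki67-high class, and 11 Mki67-high and 0 Mki67-low cells reached 10 CPM (10.36 ± 1.67, edgeR adjusted p = 0.0306). Of the 5 genes, Tacc3 was called whichever library group was left out, with adjusted p-values of 0.005803 to 0.02215. The other 4 were lost in at least 5 of the 6 omissions. Leaving out groups 1 to 6 in turn gave 2, 3, 2, 2, 1 and 2 genes called higher, and with the library group as a replicate block 0 genes were called.

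The share of cells with a gene detected was compared in counts thinned to 1000000 per cell, where a single count is enough. Bub1 was detected in 17 of 30 Mki67-high cells (56.7%, 95% Clopper-Pearson interval 37.4% to 74.5%) and in 3 of 75 Mki67-low cells (4%, 0.833% to 11.2%). These intervals pool the cells of a class and leave out the spread between library groups. Cdca3 was detected in 21 and 16 cells (70% and 21.3%), Aurkb in 16 and 11 (53.3% and 14.7%) and Stil in 15 and 11 (50% and 14.7%). For these 4 genes the share was higher in 6 of 6 library groups, with the smallest p that an exact two-sided sign-flip test allows here (0.031, 0.151 after adjustment over the 121 named genes). The 4 genes had been called by edgeR from the same cells, so their shares are a description and no separate support. Mki67-high cells also had more genes detected in thinned counts in 6 of 6 groups, and shares over all genes were not compared. Tacc3, called by edgeR, was detected in 19 and 17 cells (63.3% and 22.7%), higher in 5 of 6 groups (exact p = 0.0625). Its counts in Mki67-low cells were low, since 0 of them reached 10 CPM.

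**Figure D2:**
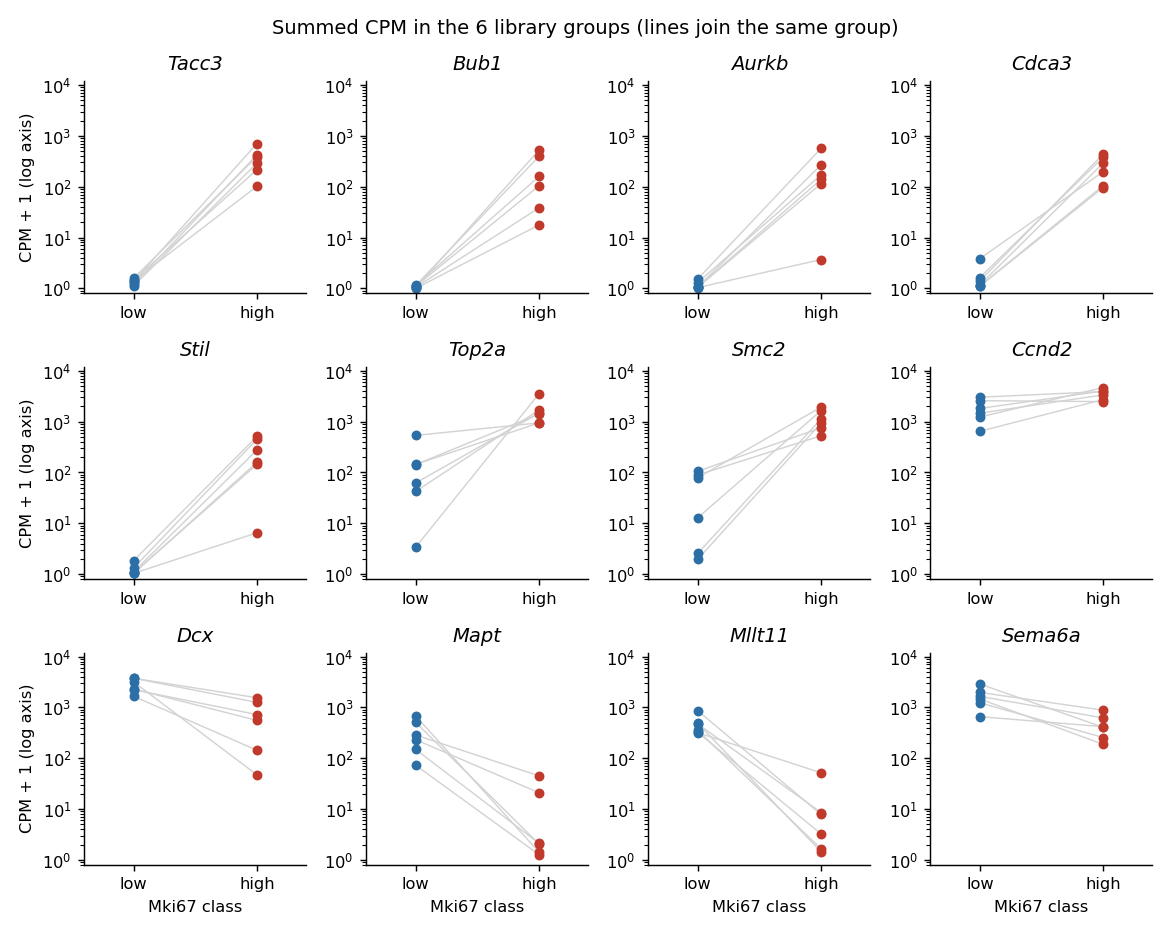
CPM + 1 of the summed counts, on a log axis, for 12 genes in the 6 library groups of each class, with lines joining the same group. The 5 genes called by edgeR (Tacc3, Bub1, Aurkb, Cdca3 and Stil) lie near 0 CPM in all Mki67-low sums, Top2a and Smc2 do not overlap between the classes, Ccnd2 and Sema6a overlap, and Dcx, Mapt and Mllt11 are lower in all Mki67-high sums than in any Mki67-low sum.

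The promoters of these genes are shown because late cell cycle genes are known for the CHR element (TTTGAA) and CCAAT boxes, and S phase genes for E2F sites (TTCCCGCC). Windows of 250 bases before to 50 after a RefSeq start in GRCm38.p6 were searched for these letters on both strands, and no motif contains another. Sequences were given for 4 of the 5 called genes, and that of Top2a is added as the most abundant mitotic gene whose sums did not overlap. Capitals mark the matches.
Tacc3: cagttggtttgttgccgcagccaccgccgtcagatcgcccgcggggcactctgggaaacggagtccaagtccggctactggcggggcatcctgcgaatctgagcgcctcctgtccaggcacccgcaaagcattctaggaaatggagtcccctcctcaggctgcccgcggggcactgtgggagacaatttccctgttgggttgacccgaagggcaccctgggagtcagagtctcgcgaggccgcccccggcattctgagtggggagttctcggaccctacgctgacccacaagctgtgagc
Bub1: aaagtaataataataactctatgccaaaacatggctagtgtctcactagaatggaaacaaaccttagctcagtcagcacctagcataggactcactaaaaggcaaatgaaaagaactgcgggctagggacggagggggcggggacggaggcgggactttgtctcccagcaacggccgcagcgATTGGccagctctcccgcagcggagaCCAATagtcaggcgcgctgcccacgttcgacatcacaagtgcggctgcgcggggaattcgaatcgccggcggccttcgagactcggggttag
Stil: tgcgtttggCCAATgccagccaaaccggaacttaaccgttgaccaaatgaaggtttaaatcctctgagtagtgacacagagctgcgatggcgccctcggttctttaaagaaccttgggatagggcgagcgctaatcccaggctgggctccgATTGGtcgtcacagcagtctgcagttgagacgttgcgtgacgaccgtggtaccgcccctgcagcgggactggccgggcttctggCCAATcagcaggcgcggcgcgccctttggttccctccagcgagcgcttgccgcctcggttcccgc
Cdca3: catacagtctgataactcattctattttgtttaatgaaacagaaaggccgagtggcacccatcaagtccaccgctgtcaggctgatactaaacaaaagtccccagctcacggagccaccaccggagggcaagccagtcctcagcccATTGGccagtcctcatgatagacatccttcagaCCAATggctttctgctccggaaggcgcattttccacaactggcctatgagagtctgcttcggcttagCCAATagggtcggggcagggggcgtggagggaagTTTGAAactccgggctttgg
Top2a: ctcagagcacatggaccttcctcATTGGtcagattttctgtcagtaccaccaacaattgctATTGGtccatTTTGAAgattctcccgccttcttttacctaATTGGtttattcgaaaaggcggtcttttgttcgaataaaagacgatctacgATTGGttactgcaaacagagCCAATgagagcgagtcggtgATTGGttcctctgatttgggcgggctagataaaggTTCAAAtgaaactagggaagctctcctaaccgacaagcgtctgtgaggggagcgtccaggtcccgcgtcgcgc

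The window of Tacc3 (chr5:33657878-33658177, plus strand) held none of the 3 motifs. That of Bub1 (chr2:127831810-127832109, minus strand) held 2 CCAAT boxes, that of Stil (chr4:114999868-115000167, plus strand) 3, and that of Cdca3 (chr6:124829926-124830225, plus strand) 3 CCAAT boxes and 1 CHR. The Top2a window (chr11:99024140-99024439, minus strand) held 6 CCAAT boxes and 2 CHR. Over all 32851 windows in the table, 17.9% held a CHR, 37.4% a CCAAT box and 2.19% the E2F letters. Over the genes tested that had a window (6004 of 8177), the shares were 13.4%, 43.8% and 5.33%. The CHR was held by 35 of 46 mitosis genes with a window (76.1%), 9 of 22 cyclin and checkpoint genes (40.9%) and 6 of 38 replication genes (15.8%). The E2F letters were held by 8 of 38 replication genes (21.1%) and 1 of 46 mitosis genes (2.17%). These shares describe the windows and were not tested.

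The mitosis list as a whole lay on the Mki67-high side. It holds 56 genes of the spindle, kinetochore and condensins apart from Mki67, of which 55 were in the table and 47 passed the filter on low counts. Here as in every list, a gene could pass the filter through the sums of either class alone. A member near 0 CPM in the Mki67-low sums was thus tested only if it was higher in the Mki67-high sums, which bears on the direction counts. Of the 47, 46 had a positive fold change and 2 were called, beside 4168 and 5 of all 8177 genes tested. At an unadjusted p under 0.05, 30 were higher and 0 lower, beside 3.03% and 4.19% of all genes. Limma called 32 higher, beside 1.54% of all genes. The median log2 fold change of the 47 was 4.18. For 8 of them all 6 Mki67-high sums exceeded all 6 Mki67-low sums, namely Tacc3, Cdca3, Top2a, Smc2, Ndc80, Spc24, Birc5 and Pbk, compared with 38 of all 8177 genes (0.465%). The summed level of the 55 genes was 6577 to 26060 CPM in the Mki67-high sums and 858 to 2948 CPM in the Mki67-low sums.

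Top2a, the topoisomerase that untangles chromosomes before they separate, had Mki67-high sums of 945, 1410, 1466, 3520, 1697 and 943 CPM and Mki67-low sums of 535, 142, 61.1, 2.38, 41.3 and 143 CPM. The groups did not overlap, with the Mki67-low sum of group 1 the nearest to the Mki67-high sums, and 17 of 75 Mki67-low cells reached 10 CPM beside 23 of 30 Mki67-high cells. The log2 fold change of 3.64 ± 0.84 did not pass the adjusted threshold in edgeR (adjusted p = 0.156) and did in limma (adjusted p = 0.000124). Smc2, a condensin subunit, had Mki67-high sums between 526 and 1926 CPM and Mki67-low sums between 0.953 and 104 CPM (4.83 ± 1.02, edgeR adjusted p = 0.124). Ndc80, a kinetochore protein, ranged from 2.45 to 427 CPM in the Mki67-high sums and did not exceed 0.677 CPM in the Mki67-low sums (8.85 ± 2.35, edgeR adjusted p = 0.239). Spag5, a spindle protein, ranged from 2.47 to 443 CPM and up to 1.42 CPM.

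Cyclins and their kinases followed the same direction. All 25 tested genes of this list had a positive fold change (median 3.40), and 2 were called (Bub1 and Aurkb). An unadjusted p under 0.05 was reached by 10, all higher, beside 3.03% of all genes. Limma called 9 higher, beside 1.54% of all genes. Sums did not overlap for Bub1, Aurkb and the mitotic cyclins Ccna2 and Ccnb1, beside 38 of all 8177 genes (0.465%). Ccna2 reached 10 CPM in 17 Mki67-high and 3 Mki67-low cells, Ccnb1 in 16 and 2, and Cdk1, the kinase they activate, in 17 and 1. The classes differed less in the E cyclins. Ccne1 reached 10 CPM in 1 and 2 cells, and Ccne2 in 8 of 30 and 13 of 75 (26.7% and 17.3%). Ccnd2, a G1 cyclin, was present in both classes. Its Mki67-high sums were 3357, 4007, 2474, 4693, 2716 and 3903 CPM and its Mki67-low sums 1467, 1817, 2589, 1229, 645 and 3022 CPM. These ranges overlap, Ccnd2 was higher in the Mki67-high class in 5 of 6 groups, and the log2 fold change of 1.11 ± 0.34 was not called by edgeR (adjusted p = 0.349) but was by limma, where the log2 difference was 4.27 (adjusted p = 0.000529). The median cell held 3188 CPM of Ccnd2 in the Mki67-high class and 59.1 CPM in the Mki67-low class. At least 10 CPM were held by all 30 Mki67-high and 52 of 75 Mki67-low cells, and at least 100 CPM by 27 and 37. The Ccnd2 exons overlap 2 genes on the opposite strand.

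DNA replication genes also lay mostly on the Mki67-high side. Of 43 tested, 40 had a positive fold change (median 1.58), 0 were called, and for 0 of them did the sums not overlap. An unadjusted p under 0.05 was reached by 7, all higher, beside 3.03% of all genes. Limma called 7 higher, beside 1.54% of all genes. The summed level of the 47 listed genes did not overlap, at 5173 to 13832 CPM in the Mki67-high sums and 823 to 4633 CPM in the Mki67-low sums. Pcna, the sliding clamp of the replication fork, had Mki67-high sums of 390, 90.9, 221, 151, 128 and 228 CPM and Mki67-low sums of 143, 21.5, 48.5, 41.0, 38.4 and 288 CPM. It was higher in 5 of 6 groups (log2 fold change 1.33 ± 0.92, edgeR adjusted p = 0.857), and 27 of 75 Mki67-low cells reached 10 CPM. Rrm2, the regulated subunit of ribonucleotide reductase, averaged 823 ± 496 and 69.2 ± 78.2 CPM (3.71 ± 1.21, edgeR adjusted p = 0.399), and its Mki67-high sum of group 1 was only 22.1 CPM. Rpa1, a single-strand binding protein, was higher in 6 of 6 groups, with 32.5 to 1111 CPM against 0.326 to 34.7 CPM (5.21 ± 1.36, adjusted p = 0.239). Clspn, the checkpoint adaptor claspin, reached 10 CPM in 11 Mki67-high and 0 Mki67-low cells. Mcm2 did so in 4 of 30 and 11 of 75 (13.3% and 14.7%), Mcm3 in 12 and 8, Mcm5 in 9 and 7, and Mcm6 in 10 and 8. The annotated Pclaf (listed as 2810417H13Rik), a Pcna-binding factor outside the list, had Mki67-high sums of 547 to 1252 CPM and Mki67-low sums of 1.25 to 110 CPM (4.40 ± 0.83, edgeR adjusted p = 0.0637, limma adjusted p = 9.59e-06).

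The median log2 fold change of DNA repair genes was 1.15. Of 23 tested, 4 had an unadjusted p under 0.05, all higher, beside 3.03% of all genes. Usp1, the deubiquitinase of the Fanconi pathway, did not overlap between the classes (216 to 703 CPM against 0.652 to 32.6 CPM, 4.96 ± 1.07, edgeR adjusted p = 0.124), whereas Brca1 ranged from 0.0384 to 1697 CPM within the Mki67-high sums. Among 25 chromatin proteins of dividing cells 8 had an unadjusted p under 0.05, all higher, beside 3.03% of all genes. Limma called 8 of the 25 higher, beside 1.54% of all genes. Set, a histone chaperone, was expressed in nearly every cell of both classes (30 of 30 and 73 of 75 at 10 CPM) and still did not overlap, with 1375 to 2356 CPM against 839 to 1270 CPM (0.91 ± 0.32, edgeR adjusted p = 0.461). The DNA-bending protein Hmgb1 averaged 1356 ± 1146 and 401 ± 166 CPM (2.05 ± 0.57, adjusted p = 0.293). Dek, a chromatin architectural protein, was higher in 6 of 6 groups (201 to 1400 CPM against 15.3 to 315 CPM, 2.77 ± 0.78, adjusted p = 0.294), as was Tmpo, a protein of the nuclear lamina and chromatin (628 to 2210 CPM against 10.99 to 1018 CPM, 1.95 ± 0.66, adjusted p = 0.424). Of 19 CDK inhibitors, pocket proteins and E2F factors, 1 had an unadjusted p under 0.05, in the higher direction, beside 3.03% of all genes. This was E2f8, which reached 10 CPM in 11 Mki67-high and 2 Mki67-low cells.

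**Figure D3:**
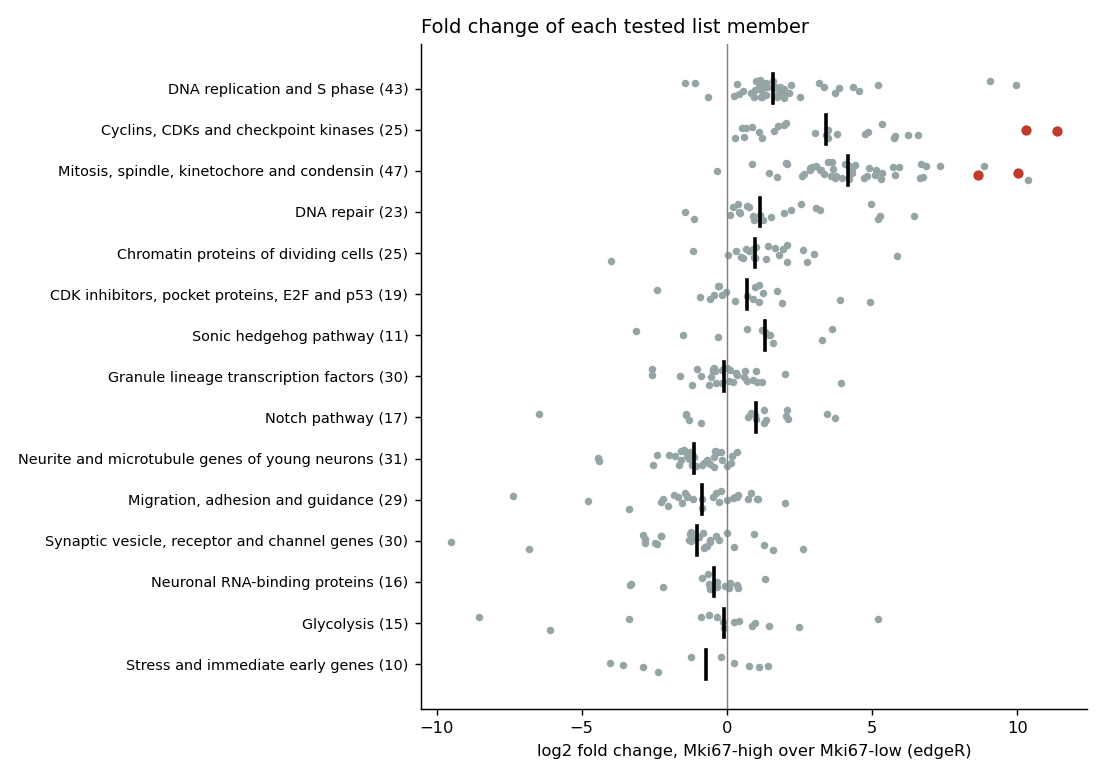
Log2 fold change, Mki67-high over Mki67-low, from edgeR for each tested member of 15 gene lists, with the number tested in brackets. Grey points are members not called, red points are called members at an adjusted p under 0.05, and black bars are list medians, which run from 4.18 for mitosis to -1.14 for neurite and microtubule genes.

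Counting genes in single cells showed how the cycling programme was distributed. Mki67-high cells held a median of 18 of the 55 mitosis genes at 50 CPM or more (range 0 to 44) and 10.5 of the 47 replication genes (1 to 26). Mki67-low cells held a median of 2 mitosis genes (0 to 12) and 2 replication genes (0 to 22). Of the 30 Mki67-high cells, 14 carried at least 10 genes of both lists, 10 at least 10 mitosis genes with fewer replication genes, 2 at least 10 replication genes with fewer mitosis genes, and 4 fewer than 10 of either. The last 4 had Mki67 between 176 and 1660 CPM, and 1 Mki67-high cell with 399 CPM of Mki67 held 0 mitosis genes at 50 CPM. Conversely 8 of 75 Mki67-low cells carried at least 10 replication genes, although their Mki67 did not exceed 4.52 CPM. Of these, 2 also carried at least 10 mitosis genes, with Mki67 of 0.770 CPM or less. In the plot of list genes per cell these 8 cells lie to the right of the other Mki67-low cells, without a wide gap. Cell 6 of library group 3, among the 8, held 12 replication genes, and cell 3 of that group, not among them, held 9. Counts per cell depend on depth and on the limit of 50 CPM, and cells near 10 genes could fall on either side.

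**Figure D4:**
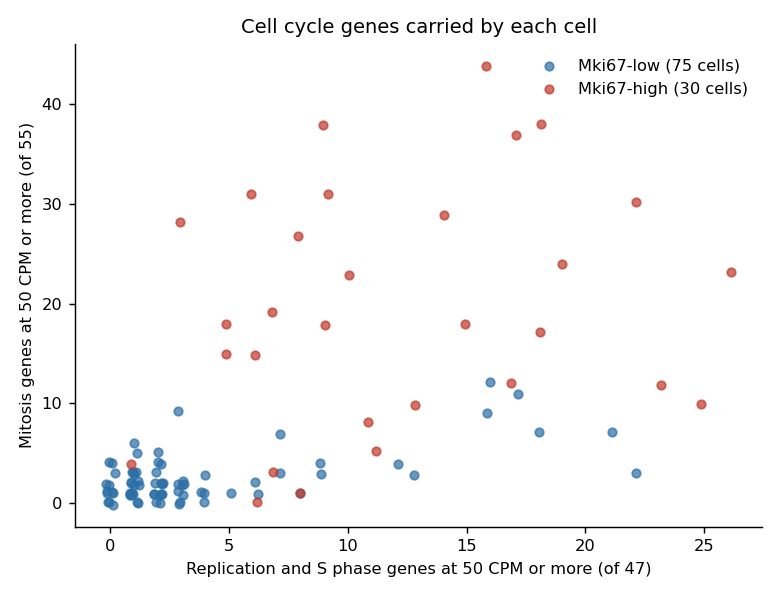
Number of mitosis genes (of 55, y axis) against number of replication genes (of 47, x axis) at 50 CPM or more in each of 30 Mki67-high and 75 Mki67-low cells, with points jittered by up to 0.2. Most Mki67-high cells lie above 10 mitosis genes, most Mki67-low cells lie below 5 of both, and 8 Mki67-low cells lie at 10 or more replication genes.

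Genes of young neurons lay on the Mki67-low side, and 0 of them passed the adjusted threshold in edgeR. Of 31 neurite and microtubule genes tested, 28 had a negative fold change (median -1.14), 9 had an unadjusted p under 0.05 in the lower direction (4.19% of all genes did) and 0 in the higher, and 4 were called lower by limma. For Dcx, Mapt, Stmn2 and Rtn1 every Mki67-high sum was below every Mki67-low sum, compared with 80 of all 8177 genes (0.978%). The summed level of the list was lower in the Mki67-high class in 6 of 6 groups, at 19268 to 30935 CPM against 35877 to 44550 CPM.

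Dcx, the microtubule-associated doublecortin of migrating neurons, had Mki67-high sums of 142, 1548, 1254, 46.2, 554 and 721 CPM and Mki67-low sums of 1658, 3743, 3753, 3177, 2302 and 2232 CPM. The groups did not overlap (log2 fold change -1.98 ± 0.60, edgeR adjusted p = 0.349, limma adjusted p = 0.0270). Dcx was nonetheless present in most Mki67-high cells, with at least 10 CPM in 26 of 30 and at least 100 CPM in 17 of 30, and in 70 and 62 of 75 Mki67-low cells. Mapt, the axonal protein tau, reached 10 CPM in 35 of 75 Mki67-low and 2 of 30 Mki67-high cells, and a single thinned count in 57 and 13. Its Mki67-high sums were 0.269 to 44.0 CPM and its Mki67-low sums 71.8 to 677 CPM (-4.41 ± 1.44, edgeR adjusted p = 0.399, limma adjusted p = 0.0206). Gap43, a growth cone protein, was lower in 6 of 6 groups (12.4 to 289 CPM against 240 to 747 CPM, -2.41 ± 0.75, edgeR adjusted p = 0.349). The tubulins Tubb3 and Tuba1a were lower in 6 of 6 groups by log2 changes of -1.26 ± 0.43 and -1.08 ± 0.34, with overlapping ranges (adjusted p = 0.433 and 0.358).

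Mllt11, a gene outside the lists that encodes a small neuronal protein, also separated the classes without overlap. Its Mki67-high sums were 0.449, 2.24, 6.84, 0.658, 50.8 and 7.53 CPM, and its Mki67-low sums 487, 322, 863, 351, 317 and 472 CPM. Group 5 was the highest Mki67-high sum and still lay below every Mki67-low sum (-5.37 ± 1.18, edgeR adjusted p = 0.124, limma adjusted p = 0.00245). Its exons overlap Cdc42se1 on the opposite strand. Cnr1, a cannabinoid receptor, had 0.747 to 103 CPM against 664 to 1669 CPM (-4.54 ± 0.86, edgeR adjusted p = 0.0637) and was called lower in 4 of 15 alternative edgeR fits, among them that with thinned counts.

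RNA-binding proteins of neurons were mixed. Of 16 tested, 4 had an unadjusted p under 0.05, all lower, beside 4.19% of all genes tested, and the median log2 fold change was -0.46. Rbfox2, a splicing factor, had 17.6 to 50.6 CPM in the Mki67-high sums and 69.4 to 1049 CPM in the Mki67-low sums (-3.31 ± 0.84, adjusted p = 0.212). Srrm4, which drives neural microexon splicing, had 0.422 to 76.3 CPM against 99.3 to 376 CPM (-3.33 ± 1.25, adjusted p = 0.504). Celf2 was abundant in both classes, and its narrow sums of 1506 to 2206 CPM lay below those of 2513 to 3681 CPM (-0.64 ± 0.26, adjusted p = 0.574). The mature neuronal marker Rbfox3 overlapped (108 ± 75.6 and 199 ± 76.4 CPM, adjusted p = 0.921). Of 29 migration and adhesion genes 4 had an unadjusted p under 0.05, all lower (median -0.85), beside 343 of all 8177 genes (4.19%). Sema6a, the semaphorin of inwardly migrating GCs, was lower in 6 of 6 groups (187 to 880 CPM against 656 to 2886 CPM, -1.81 ± 0.45, adjusted p = 0.212), although all 30 Mki67-high cells held at least 10 CPM. Of 30 synaptic genes 3 had an unadjusted p under 0.05, all lower (median -1.02), beside the same 4.19% of all genes.

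Among signalling genes of the GCP niche 0 were called by edgeR or limma. DESeq2 called 1 Notch pathway gene lower, beside 220 of all 8177 genes, and 0 of the Sonic hedgehog list. Of 11 tested genes of the Sonic hedgehog list, 1 had an unadjusted p under 0.05, in the higher direction, beside 3.03% of all genes. This was Sfrp1, a secreted Wnt antagonist that was counted with the list and is not a component of the pathway. Sfrp1 had Mki67-high sums of 3175, 910, 626, 1539, 618 and 1186 CPM and Mki67-low sums of 1217, 551, 802, 136, 304 and 389 CPM (1.49 ± 0.59, edgeR adjusted p = 0.551). Gli2, a transcriptional effector of the pathway, reached 10 CPM in 10 Mki67-high and 9 Mki67-low cells. Of 17 Notch pathway genes tested 0 were called by edgeR and 1 had an unadjusted p under 0.05, in the lower direction, beside 4.19% of all genes. The receptor Notch2 had 9.14 to 63.3 CPM against 0.176 to 29.1 CPM (2.06 ± 1.45, adjusted p = 0.857) and reached 10 CPM in 14 of 30 and 12 of 75 cells. In thinned counts Notch2 was detected in 18 and 20 cells (60% and 26.7%), with a higher share in 6 of 6 groups (exact p = 0.031, adjusted p = 0.151). The ligand Jag1 reached 10 CPM in 3 and 4 cells, and Notch1 and Hes1 did not pass the filter on low counts.

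Of the remaining lists, 0 of 15 glycolysis, 0 of 10 stress, 0 of 78 ribosomal protein and 0 of 15 mitochondrially encoded genes tested were called. At an unadjusted p under 0.05 these lists gave 1 higher gene, Hk2, and 2 lower, all in glycolysis, beside 3.03% and 4.19% of all genes. Limma called 0 genes of these 4 lists in either direction, and DESeq2 1 higher and 1 lower, both in glycolysis. The median log2 fold changes of the 4 lists were -0.11, -0.73, 0.51 and 0.40.

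Some markers of other cell types were found unequally between the classes. Gad1, the GABA-synthesizing enzyme, reached 10 CPM in 12 Mki67-low cells and in 0 of 30 Mki67-high cells. The latter count allows shares up to 10% if cells are counted as independent. Pax2, a factor of interneuron precursors, reached 10 CPM in 9 and 0 cells. Together 13 Mki67-low cells from all 6 library groups carried at least 1 of the 2. The summed level of all 9 interneuron markers overlapped, at 248 to 1283 CPM in the Mki67-high sums and 253 to 1026 CPM in the Mki67-low sums. It was higher in the Mki67-high class in 4 of 6 groups, and 2 of 4 tested markers had a positive fold change. Gad1 had 33.3 to 656 CPM in the Mki67-low sums and up to 0.768 CPM in the Mki67-high sums (edgeR adjusted p = 0.0637), and Pax2 2.73 to 112 CPM and up to 0.747 CPM. Pid1 and Ptpn5, lower without overlap as well, reached 10 CPM in 10 and 9 Mki67-low cells and 0 Mki67-high cells. Without the 13 cells, edgeR called 6 genes higher and 1 lower (Birc5 added to the 5, and Cnr1), neurite genes with an unadjusted p under 0.05 in the lower direction numbered 10 of 31, and 43 of the 80 genes that were lower without overlap remained so.

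At least 5 of 12 astroglial genes at 50 CPM were held by 2 Mki67-high and 3 Mki67-low cells, and the summed astroglial level was 211 to 2118 CPM and 372 to 3118 CPM. The fit without astroglial cells left out fewer cells. It required at least 5 of 8 of these genes at 50 CPM and kept 29 Mki67-high and 74 Mki67-low cells. Lhx1, counted with the interneuron markers, reached 10 CPM in 25 of 30 Mki67-high and 41 of 75 Mki67-low cells. Its sums were higher in 6 of 6 groups with overlapping ranges, which limma called (adjusted p = 0.0166) and edgeR did not (adjusted p = 0.499). Pdgfra, of the oligodendrocyte lineage, reached 10 CPM in 13 and 16 cells. Of 4 tested markers of that lineage 1 had a positive fold change (median log2 fold change -1.40). Their list summed to 61.4 to 2909 CPM and 288 to 2130 CPM, and was higher in Mki67-high sums in 2 of 6 groups. Foxp2, counted with the Purkinje markers, reached 10 CPM in 8 Mki67-high and 1 Mki67-low cells. Of 2 tested Purkinje markers 1 had a positive fold change. That list summed to 7.68 to 314 CPM and 0.125 to 112 CPM, higher in 5 of 6 groups. Summed markers of unipolar brush cells reached at most 361 and 300.5 CPM in the 2 classes, those of microglia 134 and 0.634 CPM, of endothelial cells 0.115 and 25.8 CPM, of meninges 10.8 and 2.35 CPM, and of erythrocytes 10.5 and 5.99 CPM.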

How the data were processed

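Single-cell RNA-seq libraries of P7 cells were analysed. The authors aligned reads to mm10 with STAR 2.4.1d, counted them per gene with HTSeq 0.6.1 and deposited raw counts for 15973 genes. The annotation and strand setting are not given in the sources used here. CPM was the count divided by the column total, times 1000000. Intervals and floors (3 counts, or 3 cells for a share of 0) cover counting error only. For shares they treat the cells of a class as independent and leave out the spread between library groups. No molecular identifiers were used.

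Counts were summed per class and library group, filtered with filterByExpr, normalized by TMM and tested with edgeR 4.0.16 (glmQLFit, robust, in R 4.3.3) with Benjamini-Hochberg adjustment at 0.05, after removal of Mki67. The test was checked on simulated sums. Alternatives used DESeq2 1.42.0, limma 3.58.1, other Mki67 limits, no filter, thinned counts, left-out cells or library groups, and a replicate block. The count of cells at 10 CPM or more and the fit without Gad1 or Pax2 cells were chosen after the data were seen. Single values used exact sign-flip tests over 6 library groups in numpy 2.4.6. Positions are from GENCODE M21 (GRCm38).

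Named genes were the selection markers, genes the study names, up to 15 per direction that were called or did not overlap, and the leading members of each list by p. Mitotic and E cyclins, Cdk1, the Mcm genes, Zic1, Zic2, Barhl1, Spc24, Birc5, Pbk, Stmn2, Rtn1 and the genes called only under an alternative were named after their values were seen. Members and gene lists were chosen with earlier results of these data known.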

Additional observations from a re-analysis of the deposited data

Results flagged for a closer look

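In 18 of 76 sets of 6 library group values, 1 value stood far from the other 5 by Dixon's criterion. Chance alone meets this criterion in about 1 of 20 sets only where values are normally distributed. Here it was applied to values without a log scale, and each value that stood apart was the highest of its set. The 18 of 76 therefore cannot be compared with that rate, and no excess over chance is claimed. In the Mki67-high sums the high values were 3520 CPM of Top2a (next 1697), 1252 CPM of Pclaf (2810417H13Rik, next 804), 427 CPM of Ndc80 (next 152), 1111 CPM of Rpa1 (next 394), 2206 CPM of Celf2 (next 1746), 362 CPM of Atoh1 (next 69.2) and 3175 CPM of Sfrp1 (next 1539). Also in the Mki67-high sums, where the gene was low, 289 CPM of Gap43, 50.8 CPM of Mllt11, 0.768 CPM of Gad1 and 0.747 CPM of Pax2 stood apart.

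In the Mki67-low sums the values that stood apart were 535 CPM of Top2a (next 143), 315 CPM of Dek, 863 CPM of Mllt11, 28.8 CPM of Atoh1, 2.82 CPM of Cdca3 and 0.839 CPM of Stil. The median share of counts taken by the highest gene of a cell was 1.61% in the Mki67-high cells of group 5 and at most 1.20% in the other groups.

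The 4 cells in neither class all held more Mki67 than the highest Mki67-low cell (9.27 CPM). Cell 5 of group 2 had 21.3 CPM. Cell 12 of group 2 had 66.4 CPM, which was 1 count of a total of 15071. Cells 18 of group 3 and 18 of group 6, left out for 13533 and 12684 detected genes, had 241 and 477 CPM, and both also held at least 5 of 8 astroglial genes at 50 CPM and Gad1 or Pax2 at 10 CPM.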

How the results depend on the processing

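The count of 5 genes called higher became 173 in DESeq2 on sums, 126 in limma, 0 with Mki67 of at least 200 CPM against none (25 and 18 cells, 6036 genes tested), 1 at an adjusted p under 0.01 and 1 to 3 with a library group left out. It stayed at 4 to 6 with DESeq2 size factors, no filter, a single limit of 50 CPM, all cells of the series, thinned counts, and without astroglial or Gad1 and Pax2 cells. The count of 0 genes called lower became 220 in DESeq2, 9 in limma, 3 without a filter, 3 with thinned counts, 1 without Gad1 or Pax2 cells and 0 to 1 with a library group left out. Genes whose sums did not overlap, 38 higher and 80 lower, became 117 and 6 with Mki67 of 200 CPM against none, and the lower count became 41 with all cells of the series and 53 without Gad1 or Pax2 cells. With the library group as a replicate block 0 genes were called higher and 0 lower. Both sums of a library group hold cells of that group by construction, and the unblocked fit does not use this. Their deviations correlated at 0.055 to 0.117, and each Mki67-high sum correlated best with the Mki67-low sum of its own group in 6 of 6. What the group number stands for is not given in the sources used here. The cause of these changes was not tested.

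Of the genes given with a fold change, a level or a count of cells, 3 turned direction. Tmpo changed from 1.95 to -0.30 with Mki67 of 200 CPM against none, and Pax6 from -0.60 to 0.51 in limma. Meis1 changed from 0.11 to -0.063 without a filter, -0.19 with Mki67 of 200 CPM against none, -0.15 with all cells, -0.0031 without Gad1 or Pax2 cells and -0.22 to 0.40 with a library group left out (negative without groups 1, 4 or 6). The median over all genes was 0.04 in the main fit, 0.19 with DESeq2 size factors and -0.75 with the block, so changes are relative to it. Over the 121 named genes, the lowest adjusted p for the share of cells was 0.151 with at least 1 thinned count and 0.102 with at least 5. Sequencing depth was above 1000000 counts in every cell used, and the number of library groups and the spread between their values limit the tests.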
